A study of Mus musculus with 8 samples.

Results

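ISG15 and its conjugation machinery were followed through the messenger RNA of 4 genes, Isg15, Ube2l6, Herc6 and Usp18, out of 19892 genes measured in mouse CD8+ T cells. Isg15, Ube2l6 and Usp18 were taken by gene name from the array annotation and Herc6 by its accession, with the brightest probe standing for each gene. The CD8+ cells came from spleens of OT-I mice on the C57BL6 background and were purified to between 90% and 97%. OT-I cells carry a transgenic T cell receptor (TCR) for the ovalbumin peptide SIINFEKL presented by H-2Kb, and every group shared that transgene and the culture medium. The study concerns the influence of type I interferon on responding T cells. Each of the 6 treated conditions had 1 array: IFNβ (interferon beta) by itself for 2 h or 7 h, TCR stimulation alone with SIINFEKL streptamers for 1 h or 6 h, and IFNβ for 1 h combined with TCR stimulation for 1 h or 6 h. Untreated cells had 2 arrays. The labels used here do not say whether IFNβ stayed on during the TCR stimulation or how long the untreated cells were cultured. They also do not say whether arrays came from separate mice. With 1 array per treated condition, p-values rest on how far arrays of different conditions depart from the fitted model. They do not measure a spread between repeated cultures or mice.

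ISG15 is a ubiquitin-like protein that is attached to other proteins in cells exposed to type I interferon. The E1 enzyme UBA7 activates it, the E2 enzyme UBE2L6 carries it, and an E3 ligase transfers it to targets, a task that HERC6 performs in the mouse. USP18 removes ISG15 from its targets and, separately from that activity, binds the interferon receptor chain IFNAR2 and dampens signalling. All of these genes are textbook interferon-stimulated genes, many of which are switched on by transcription factors that bind a DNA element called the interferon-stimulated response element (ISRE).

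The promoters are shown as sequence background, and their part in the timing or size of any response was not tested. RefSeq windows on GRCm38.p6, from 250 bases before to 50 after the annotated start, were found for Isg15, Ube2l6 and Herc6. No window was available for Usp18. The ISRE core was searched as 2 copies of GAAA separated by any 2 bases, on both strands, and it was present in 3.44% of 32851 such windows. Capitals mark the matches in the 250 upstream bases, printed 5′ to 3′ on the strand of the gene, for Isg15 (chr4:156200819-156201068, minus strand), Ube2l6 (chr2:84798578-84798827, plus strand) and Herc6 (chr6:57580742-57580991, plus strand).
Isg15: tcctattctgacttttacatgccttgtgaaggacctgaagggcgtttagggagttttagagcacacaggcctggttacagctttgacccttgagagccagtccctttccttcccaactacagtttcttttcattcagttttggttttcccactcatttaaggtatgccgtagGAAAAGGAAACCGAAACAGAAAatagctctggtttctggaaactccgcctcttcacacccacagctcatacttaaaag
Ube2l6: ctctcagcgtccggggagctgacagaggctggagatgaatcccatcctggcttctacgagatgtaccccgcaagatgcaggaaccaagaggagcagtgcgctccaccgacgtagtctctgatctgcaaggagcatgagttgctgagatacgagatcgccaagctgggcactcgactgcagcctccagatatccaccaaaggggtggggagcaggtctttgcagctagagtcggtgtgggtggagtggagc
Herc6: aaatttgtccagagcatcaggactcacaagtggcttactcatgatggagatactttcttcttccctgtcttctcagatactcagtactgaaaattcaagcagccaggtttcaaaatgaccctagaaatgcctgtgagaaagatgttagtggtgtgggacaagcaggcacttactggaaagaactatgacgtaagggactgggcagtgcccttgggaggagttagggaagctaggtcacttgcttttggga
The Isg15 window held 3 matches, which overlap each other and begin 78, 72 and 66 bases upstream of the start. The Ube2l6 and Herc6 windows held none of these letters, which says nothing about sites outside the windows or of other spelling. The gamma-activated site (TTCNNNGAA, in 8.3% of windows) and an AP-1 site (TGANTCA, in 7.81%) were in none of the 3 windows. The window of Uba7, the gene of the E1 enzyme, held no ISRE core, no gamma-activated site and 1 AP-1 match.

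In build mm9 the Usp18 probe lies at chr6:121220513-121220572, the Ube2l6 probe at chr2:84649390-84649449 and the Herc6 probe at chr6:57568608-57568667. The array annotation calls Herc6 by its older name Herc5, and its accession identified it. All 4 genes were well above background on all 8 arrays, and none was saturated.

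Of the 8 arrays, 4 were on slide 1 (untreated 1, IFNβ 2 h and the pair with 1 h of TCR) and 4 on slide 2 (untreated 2, IFNβ 7 h and the pair with 6 h of TCR). Among the treated arrays the slide thus goes with the length of treatment, and only the untreated arrays link the slides. Signals below are on a linear scale on which the 75th percentile of every array is 1500. Between 26065 and 29533 of 43379 non-control spots per array were well above background, and the number of arrays limits the precision. The deposited value table and the scanner files disagree on the pair with 1 h of TCR: each of these columns matched the other's scanner file. The value table's naming is used here because the member rule sets it, and model estimates under the other naming are given beside the results that rest on it. Because strong interferon-induced genes bear on that choice, the IFNβ difference within this pair is no independent support for a response of the members. All 7 CD8 T cell markers were well above background on every array. The summed signal of 7 B cell markers was 13400 and 13060 untreated, 41150 after IFNβ 2 h, 35360 after IFNβ 7 h and 10240 with IFNβ 1 h + TCR 1 h, with Pax5 not well above background on any array. The 6 NK cell markers summed to 2122 and 2049 untreated, 5065 and 5695 after IFNβ 2 h and 7 h, and 3021 with IFNβ 1 h + TCR 1 h. Within this sum Eomes was 369.2 and 366.4 untreated, 2117 and 3162 after IFNβ 2 h and 7 h, and 1933 with IFNβ 1 h + TCR 1 h. The other NK cell markers were also above untreated after IFNβ 2 h and 7 h, except that Klrb1c was nearly unchanged at 2 h. It was 138.4 there, against 131.4 and 135.4 untreated. With IFNβ 1 h + TCR 1 h, however, Klrb1c, Klra8, Klra4 and Tyrobp were below untreated and Ncr1 was not well above background. The part of B cells and NK cells in the member values was not tested. In a mixed population fewer cells of a type and less RNA per cell cannot be told apart.

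All 4 genes were at least 2-fold higher than untreated on the arrays for IFNβ 2 h, IFNβ 7 h and IFNβ 1 h + TCR 1 h, and 3 of 4 were on the array for IFNβ 1 h + TCR 6 h. The share of all genes past that fold was 10% for IFNβ 2 h, 10.7% for IFNβ 7 h, 10.6% for IFNβ 1 h + TCR 1 h and 21.2% for IFNβ 1 h + TCR 6 h. At 2 h of IFNβ, Isg15 and Usp18 were within 1.71-fold and 1.38-fold of their level at 7 h, while Ube2l6 and Herc6 were 14.9-fold and 5.17-fold below it. These comparisons share the untreated arrays. Under the scanner files' naming the values of the arrays with 1 h of TCR are exchanged. With IFNβ 1 h + TCR 6 h all 4 genes were at least 2-fold lower than after 7 h of IFNβ alone, as were 26.4% of all genes.

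**Figure D1:**
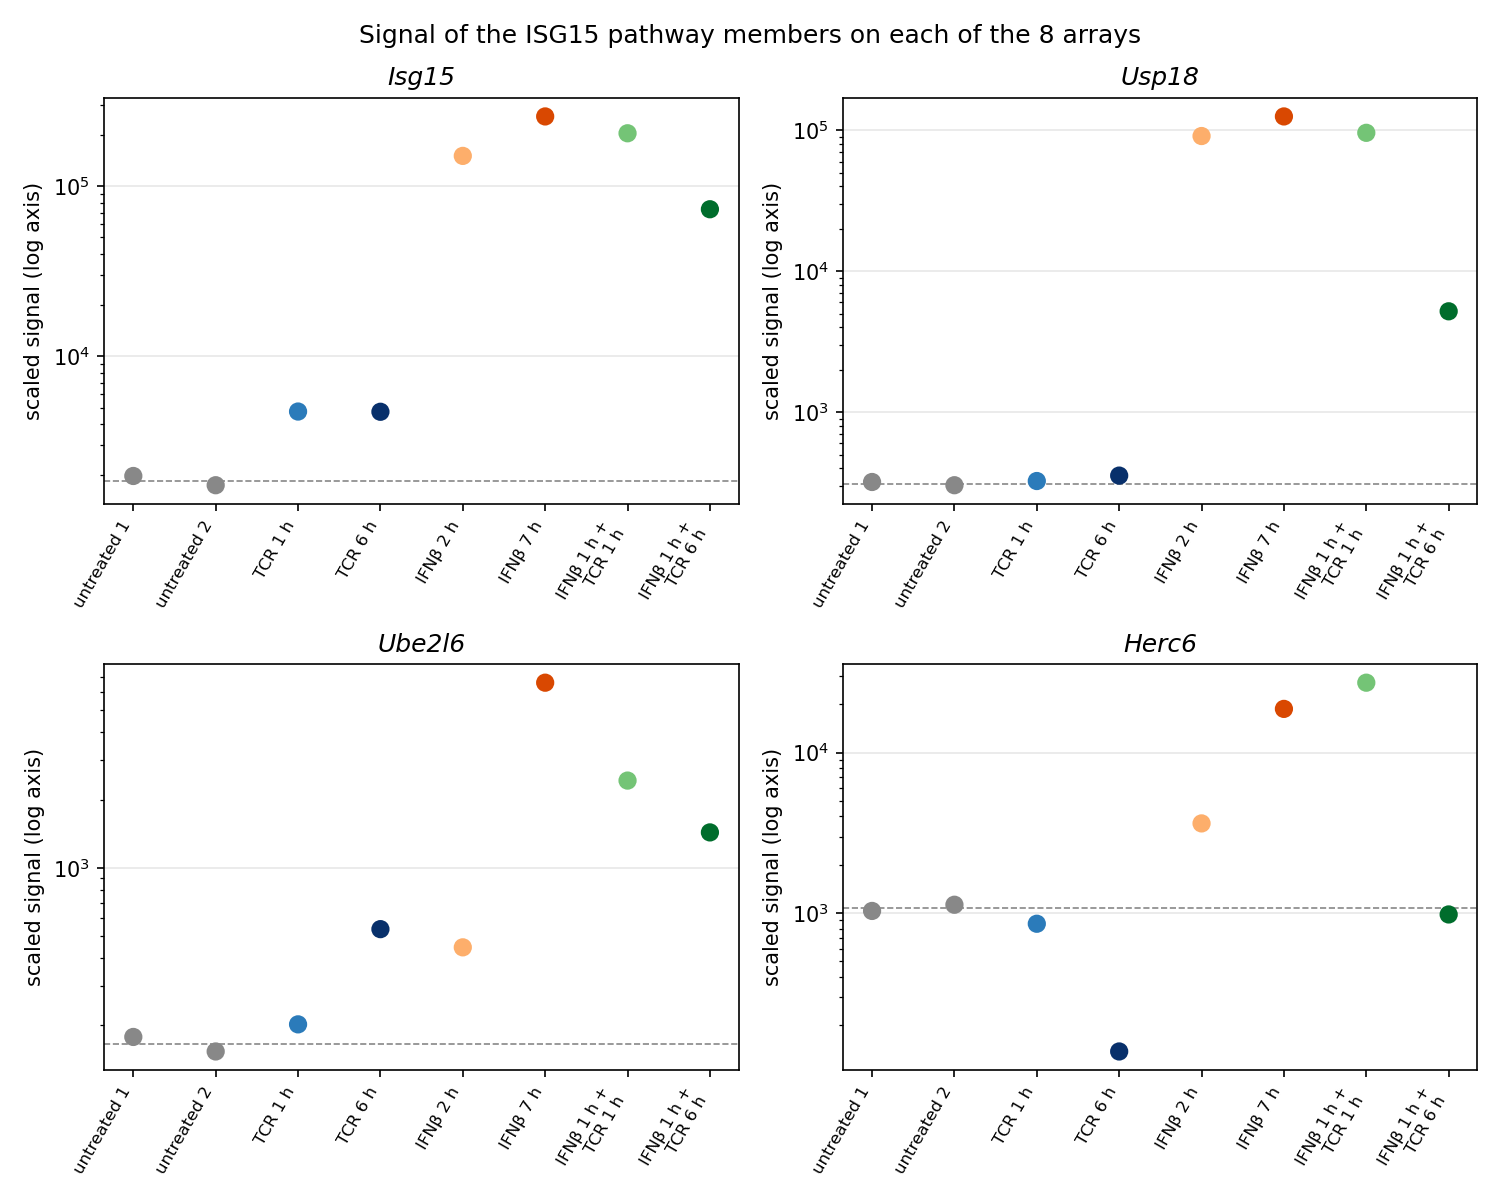
Scaled signal of Isg15, Usp18, Ube2l6 and Herc6 on each array, on a log axis, with 1 point per array and the untreated mean as a dashed line. Under the value table's naming Isg15 and Usp18 with IFNβ sit above every array without it, Ube2l6 and Herc6 do not, and Herc6 is at 137.5 on the TCR 6 h array.

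Isg15, the modifier, had a scaled signal of 1983 and 1750 on the untreated arrays, 150800 after IFNβ 2 h and 257200 after IFNβ 7 h. It was 4743 after TCR 1 h, 4728 after TCR 6 h, 204800 with IFNβ 1 h + TCR 1 h, and 73260 with IFNβ 1 h + TCR 6 h. Under the value table's naming the 4 arrays with IFNβ lay above the 4 without it, from 73260 upward against 4743 at most. Over untreated the signal was 80.9-fold higher at 2 h of IFNβ and 138-fold higher at 7 h. The TCR-stimulated arrays without IFNβ were also above untreated, by 2.55-fold at 1 h and 2.54-fold at 6 h, and they did not differ from each other beyond the spread of the untreated arrays. That spread is the 95th percentile of the absolute log2 difference between the untreated arrays among genes of like signal, 0.15 here. The untreated arrays differed by little more than spot noise. For all 4 members the spread may therefore not cover variation between cultures or mice, and a step that exceeds it is no test between conditions. In the order of Isg15 levels, every other step between neighbouring conditions exceeded this spread.

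Usp18, which reverses the conjugation, was the gene of the 4 with the largest log2 difference at 2 h. Its signal was 319.1 and 302.7 untreated, 90980 after IFNβ 2 h and 125300 after IFNβ 7 h. It was 324.2 after TCR 1 h, 354.2 after TCR 6 h, 95870 with IFNβ 1 h + TCR 1 h, and 5190 with IFNβ 1 h + TCR 6 h. Under the same naming all 4 arrays with IFNβ lay above the others, but the one with 6 h of TCR was 24.2-fold below IFNβ 7 h alone. IFNβ 2 h and IFNβ 1 h + TCR 1 h did not differ beyond the untreated spread, nor did TCR 1 h from untreated or TCR 6 h from TCR 1 h. Of all genes, 1.95% had every array with IFNβ above every array without it, against 2 of the 4 members, Isg15 and Usp18. This separation rests on the value table's naming, since with the arrays of the 1 h TCR pair exchanged neither gene separates.

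Ube2l6, the E2 enzyme, had the lowest fold of the 4 at 2 h of IFNβ. Its signal was 177.8 and 153.3 untreated, 444 after IFNβ 2 h and 6625 after IFNβ 7 h, which is 2.69-fold and 40.1-fold over untreated. The 7 h array was 14.9-fold above the 2 h array, a difference larger than that of 99.9% of genes. It was 202.2 after TCR 1 h, 534.7 after TCR 6 h, 2438 with IFNβ 1 h + TCR 1 h, and 1436 with IFNβ 1 h + TCR 6 h. The groups overlap, since 6 h of TCR alone gave more signal than 2 h of IFNβ. Ube2l6 after TCR 1 h did not differ from untreated beyond the untreated spread.

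Herc6, the ligase, was the only one of the 4 with a signal at least 2-fold below untreated on any array. Its signal was 1032 and 1128 untreated, 3622 after IFNβ 2 h and 18720 after IFNβ 7 h. It was 858.9 after TCR 1 h, 137.5 after TCR 6 h, 27260 with IFNβ 1 h + TCR 1 h, and 981.3 with IFNβ 1 h + TCR 6 h. The array with 6 h of TCR alone was thus 7.85-fold below untreated, and with IFNβ and 6 h of TCR the level was within the untreated spread of the untreated mean. After TCR 6 h 21.9% of all genes were at least 2-fold lower than untreated and 21.5% at least 2-fold higher, against 1 (Herc6) and 2 (Isg15 and Ube2l6) of the 4 members.

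A second Herc6 probe, whose ends lie 314 bases apart on the genome, gave 364.2 and 372.3 untreated, 1884 after IFNβ 2 h, 25790 after IFNβ 7 h and 13360 with IFNβ 1 h + TCR 1 h. It gave 338.4 after TCR 1 h, 106.4 after TCR 6 h and 589.2 with IFNβ 1 h + TCR 6 h. The probes disagree on the order of the top conditions: the brighter probe was highest with IFNβ 1 h + TCR 1 h and the other after IFNβ 7 h. They also differ in sign with IFNβ 1 h + TCR 6 h, at a log2 difference from untreated of -0.14 and 0.68.

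**Figure D2:**
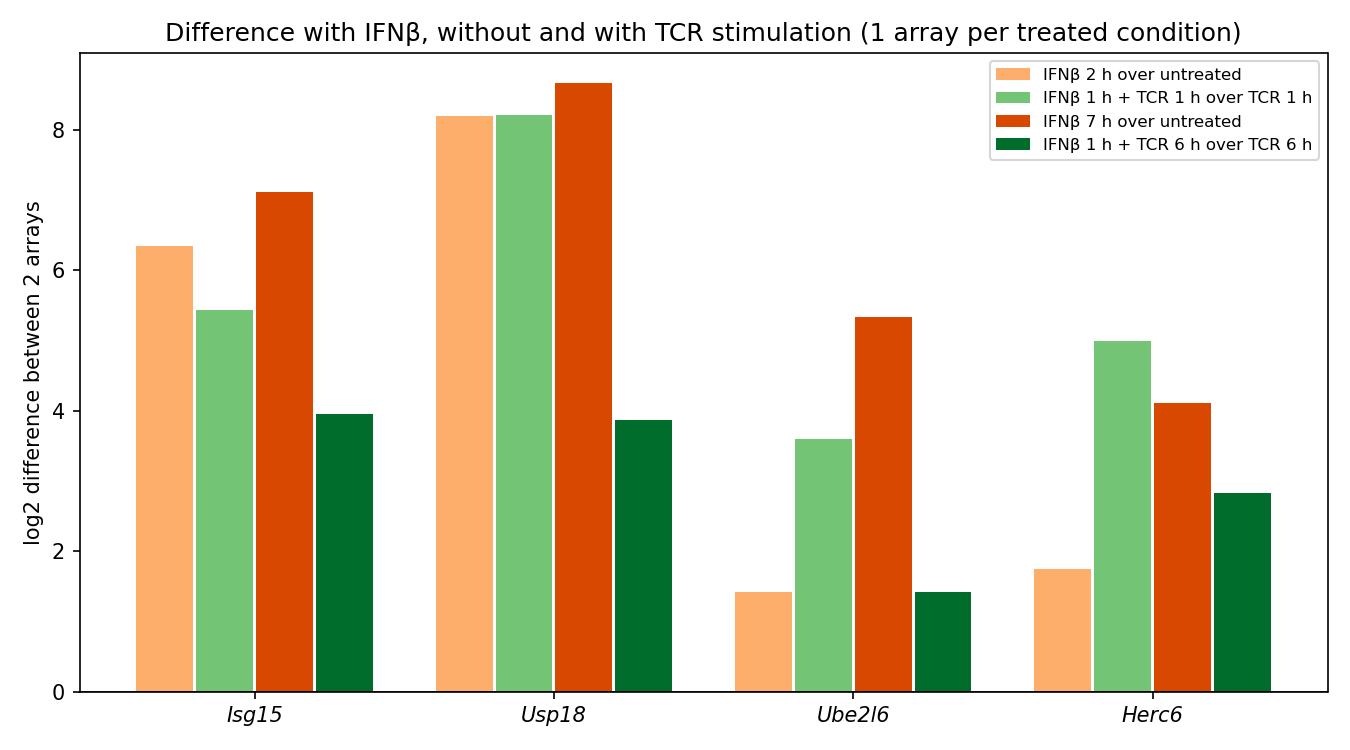
Log2 difference with IFNβ for each gene, without TCR (2 h and 7 h, orange) and with TCR stimulation of 1 h and 6 h (green), each bar 1 treated array against its reference. The bars with 6 h of TCR are the lowest for Isg15 and Usp18, at 3.95 and 3.87, and reach 1.43 for Ube2l6 and 2.83 for Herc6.

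The effect of IFNβ over all conditions was tested in an additive model with terms for IFNβ, TCR 1 h and TCR 6 h, fitted with limma to all genes over 7 samples, the untreated mean counting as 1. The IFNβ term was a log2 difference of 5.51 ± 0.52 (SE) for Isg15, 6.99 ± 0.84 for Usp18, 3.52 ± 0.67 for Herc6 and 2.86 ± 0.95 for Ube2l6. None of the 4 passed the adjusted threshold of 0.05, with limma adjusted p of 0.051, 0.085, 0.25 and 0.49 in that order. All 4 were higher with IFNβ in the 3 array pairs whose naming is not disputed. Only 10 of 19892 genes (0.0503%) passed, and 1705 had an unadjusted p under 0.05. By size of the term Usp18 ranked 5 and Isg15 ranked 13 among all genes. Counting the untreated arrays as separate samples gave a limma adjusted p of 0.013 for Isg15 and 0.023 for Usp18. Over 22 alternatives the adjusted p in limma ran from 0.0053 to 1 for Isg15, which passed in 8, and from 0.0014 to 1 for Usp18, which passed in 7, while Ube2l6 and Herc6 passed in none. Under the scanner files' naming of the 1 h TCR pair the term was 2.25 for Isg15, 2.07 for Usp18, 0.70 for Ube2l6 and 0.53 for Herc6.

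The TCR terms of the same model separated the members less. None passed for TCR 1 h, where 4.16% of genes passed, and the estimates ran from -0.29 for Usp18 to 0.80 for Herc6, or from -1.11 to 0.30 for the same genes under the scanner files' naming. For TCR 6 h Herc6 fell by 2.92 ± 0.80 (SE) on the log2 scale with a limma adjusted p of 0.026. Of all genes 22.7% fell at TCR 6 h, so 1 of 4 is near the background. Usp18 had a TCR 6 h estimate of -2.32 ± 1.00 (limma adjusted p 0.11), Isg15 of -0.24 and Ube2l6 of 0.63. The Herc6 call was lost with normexp background correction (limma adjusted p 0.12), with the mean of its probes (0.054), under the scanner files' naming (0.21), and without the array for IFNβ 7 h (0.055) or for IFNβ 1 h + TCR 6 h (0.19). Over its 21 alternatives the adjusted p in limma ran from 0.0063 to 0.21, and 16 passed. The Usp18 estimate rested on the array for IFNβ 1 h + TCR 6 h, since without it the estimate was 0.13, and without the TCR 6 h array it was -4.33 (limma adjusted p 0.0017).

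**Figure D3:**
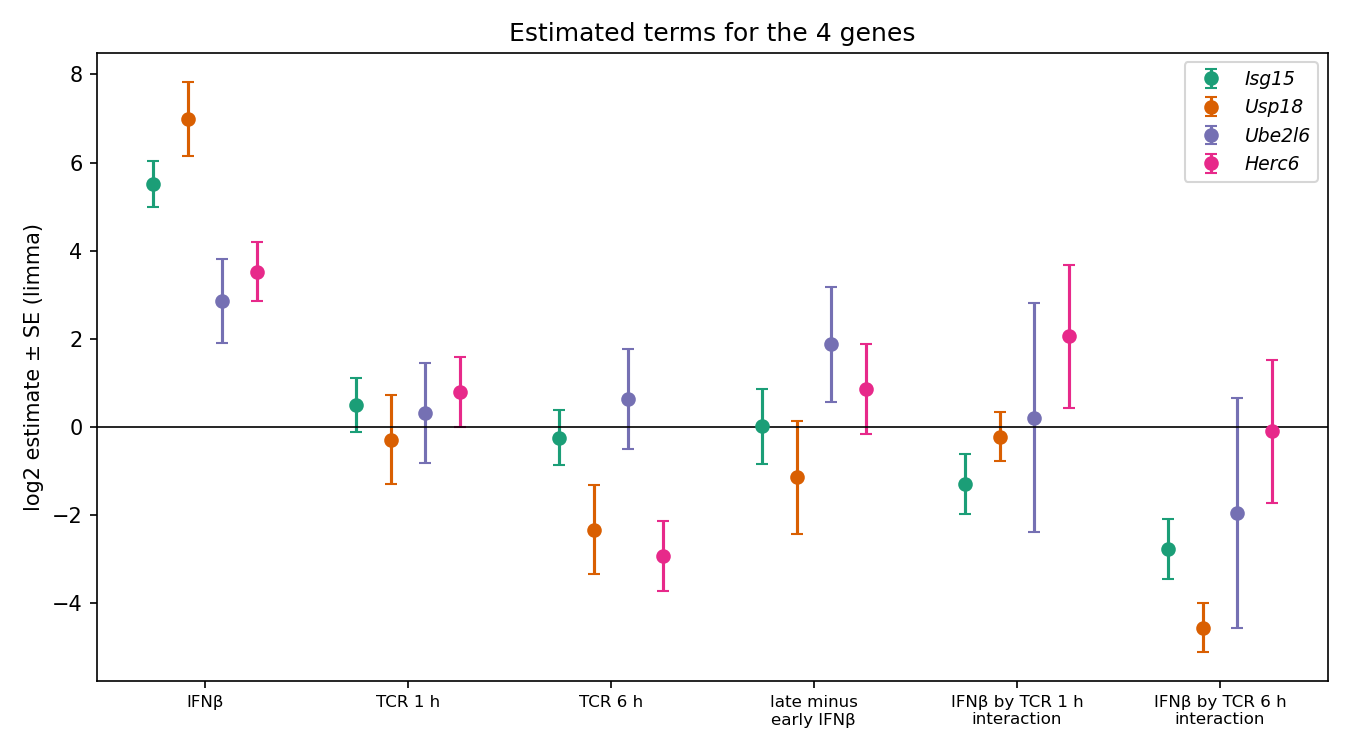
Estimated log2 terms ± SE from limma for the 4 genes: the additive IFNβ, TCR 1 h and TCR 6 h terms, the late minus early IFNβ term, and the interactions of IFNβ with TCR. The IFNβ terms run from 2.86 to 6.99, and the Usp18 interaction with 6 h of TCR, at -4.55, is the lowest of the terms.

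Whether the IFNβ difference itself depended on TCR stimulation was tested with interaction terms, in a model with 1 residual degree of freedom. That degree is the difference between IFNβ 2 h and IFNβ 7 h, which share 1 mean in the model. On the log2 scale this difference was 0.46 for Usp18, 0.77 for Isg15, 2.37 for Herc6 and 3.90 for Ube2l6. The SE of both interactions thus follows each gene's change between these times, and a small SE or p is no measure of repeatability. The interaction with 6 h of TCR was -4.55 ± 0.55 for Usp18, -2.77 ± 0.68 for Isg15, -1.95 ± 2.60 for Ube2l6 and -0.10 ± 1.62 for Herc6. Their limma adjusted p were 0.5, 0.52, 0.92 and 0.99, and unadjusted p were 0.0011 for Usp18 and 0.015 for Isg15. None of 19839 genes (0%) passed in limma, and 1635 had an unadjusted p under 0.05. On single arrays Usp18 was 14.7-fold higher with IFNβ in the presence of 6 h of TCR, against 403-fold for 7 h of IFNβ over untreated. The corresponding folds were 15.5 and 138 for Isg15, 2.69 and 40.1 for Ube2l6, and 7.14 and 17.3 for Herc6. The direction of the TCR 6 h difference also depended on IFNβ for Isg15, which was 2.54-fold higher than untreated without IFNβ but 3.51-fold lower than IFNβ 7 h with it, and for Ube2l6, which was 3.24-fold higher and 4.62-fold lower. The exposure to IFNβ differs between these arrays in the labels (1 h before or with 6 h of TCR, against 7 h), so the combination and the IFNβ schedule cannot be told apart.

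The interaction with 1 h of TCR was -1.29 ± 0.68 for Isg15, -0.22 ± 0.55 for Usp18, 0.22 ± 2.60 for Ube2l6 and 2.06 ± 1.62 for Herc6, and none passed (0 of 19791 genes in limma, with 1512 at an unadjusted p under 0.05). Against IFNβ 2 h, the array with IFNβ 1 h + TCR 1 h was 7.53-fold higher for Herc6 and 5.49-fold higher for Ube2l6, but 1.36-fold higher for Isg15 and 1.05-fold for Usp18. These folds hold only under the value table's naming: with the arrays exchanged Herc6 would be 858.9 against 3622 and Ube2l6 202.2 against 444, both lower than IFNβ 2 h. Under the scanner files' naming the interaction was -12.2 for Isg15 and -16.6 for Usp18 (limma adjusted p 0.041 each), and -6.97 for Ube2l6 and -7.92 for Herc6 (0.31 and 0.16).

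The time course was tested as the later minus the earlier IFNβ difference, with and without TCR together. The term was 1.88 ± 1.31 for Ube2l6, 0.86 ± 1.02 for Herc6, 0.02 ± 0.85 for Isg15 and -1.14 ± 1.28 for Usp18, with a limma adjusted p of 1 for each. Under the scanner files' naming it was 4.27 for Ube2l6, 4.19 for Herc6, 3.64 for Isg15 and 4.33 for Usp18, whose sign turned, again with a limma adjusted p of 1 for each. None of 19888 genes passed in limma, and 758 had an unadjusted p under 0.05. The later difference in this term averages IFNβ 7 h alone and IFNβ with 6 h of TCR. On the arrays without TCR, Herc6 was 5.17-fold higher at 7 h than at 2 h of IFNβ, Isg15 1.71-fold and Usp18 1.38-fold.

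The remaining genes of the pathway were taken from a list of 13, of which 12 were on the array and 11 were tested. None passed for the IFNβ term (0.0503% of all genes did) and 1 passed for TCR 1 h (4.16% of all genes did). For TCR 6 h 6 passed (5 higher and 1 lower, against 22.2% and 22.7% of all genes). The median of the list at TCR 6 h was 1.24 on the log2 scale, against 0.05 over all genes. Uba7, the E1 enzyme that starts the cascade, had a signal of 18550 and 18630 untreated, 79500 after IFNβ 2 h, 200200 after IFNβ 7 h and 95650 with IFNβ 1 h + TCR 1 h. It was 14320 after TCR 1 h, 3501 after TCR 6 h and 8457 with IFNβ 1 h + TCR 6 h, so both arrays with 6 h of TCR lay below untreated, as for Herc6 with TCR alone. Its IFNβ term was 2.31 ± 0.44 (limma adjusted p 0.24), and at TCR 6 h it fell by 3.23 ± 0.52 on the log2 scale (limma adjusted p 0.0037). Under the scanner files' naming no gene of the list passed in the lower direction at TCR 6 h.

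Trim25, an E3 ligase reported to take ISG15 as well as ubiquitin, had a signal of 18000 and 17850 untreated, 76900 and 71840 after IFNβ 2 h and 7 h, and 65570 with IFNβ 1 h + TCR 1 h. It was 5112 after TCR 1 h, 8442 after TCR 6 h and 13400 with IFNβ 1 h + TCR 6 h, and its IFNβ term of 2.13 ± 0.50 did not pass (limma adjusted p 0.34). Ube2e1, a ubiquitin E2 enzyme, rose by 1.77 ± 0.26 at TCR 6 h (limma adjusted p 0.0027). Usp14, a deubiquitinase of the proteasome, rose by 1.76 ± 0.23 (0.0017), and Usp16, a deubiquitinase of histones, by 1.49 ± 0.24 (0.004). Usp2, another deubiquitinase, had the lowest IFNβ term of the list, -1.57 ± 0.52 (limma adjusted p 0.49), with 2531 after TCR 1 h against 275.5 and 276.2 untreated. The count of 5 higher genes was 3 with normexp and 3 without the array for IFNβ 1 h + TCR 6 h.

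**Figure D4:**
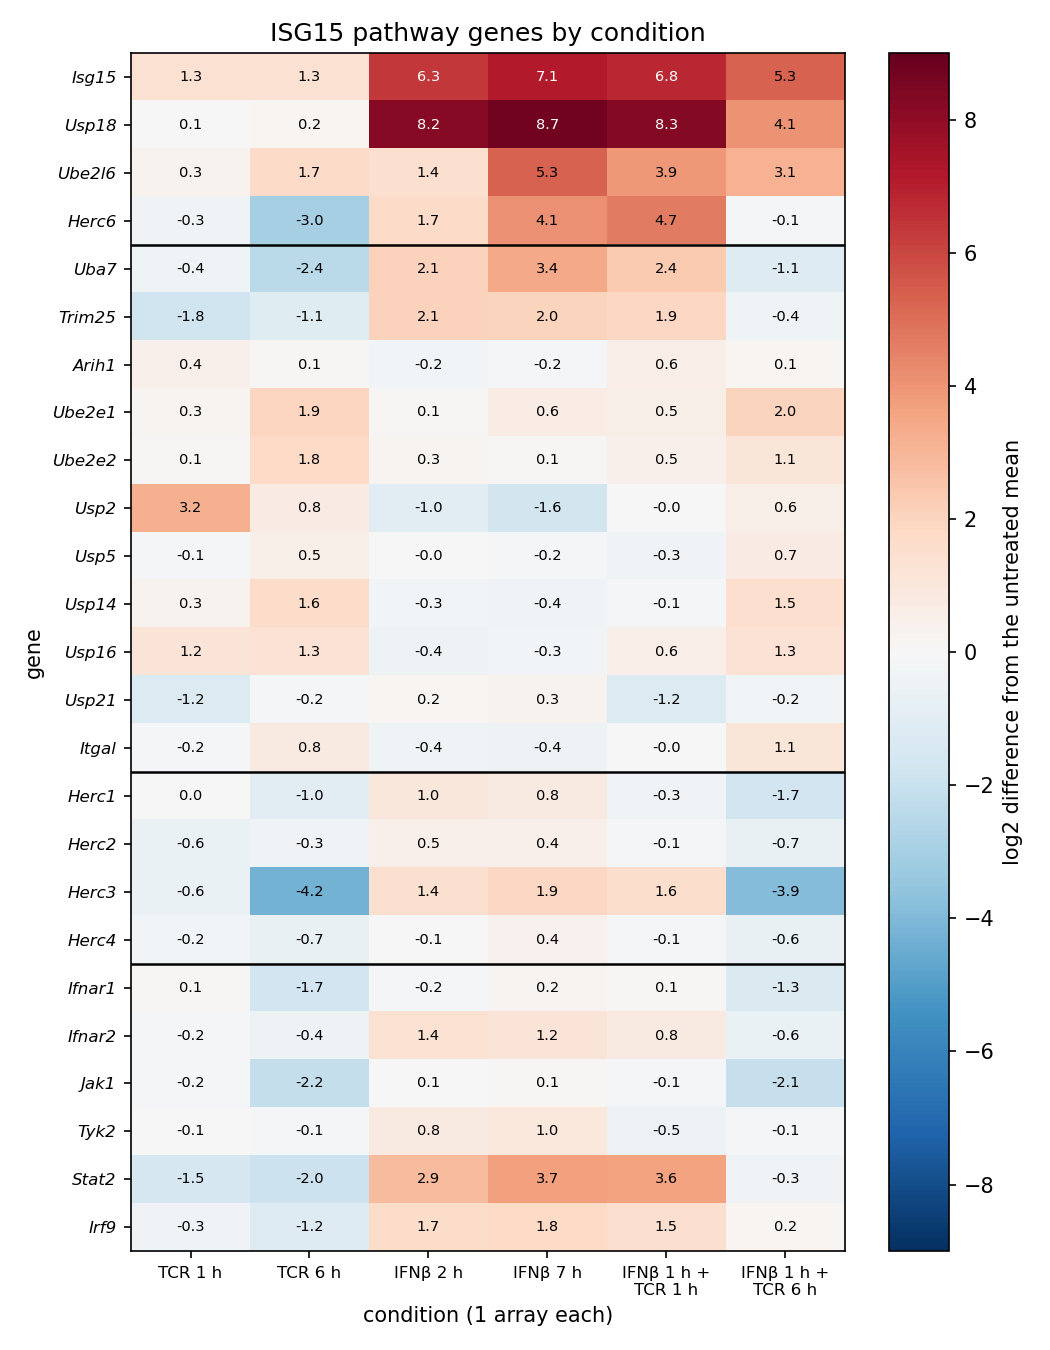
Log2 difference from the untreated mean for the 4 members and, below the lines, other ISG15 pathway genes, HERC ligases and the receptor arm, in each treated condition (1 array each). Besides the members, of which Ube2l6 is at 1.4 after IFNβ 2 h, Uba7, Trim25, Stat2 and Irf9 are at or above 1.5 on the arrays with IFNβ alone, and Herc3 is at -4.2 and -3.9 with 6 h of TCR.

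The 4 other HERC ligases measured, Herc1, Herc2, Herc3 and Herc4, are relatives of Herc6. None passed for IFNβ, where 0.0503% of all genes passed. At TCR 6 h 3 of 4 fell, against 22.7% of all genes, the largest being Herc3, which fell by 4.95 ± 0.43 (limma adjusted p 0.00056). Herc3 had a signal of 7632 and 7371 untreated, 20090 and 27280 after IFNβ 2 h and 7 h, and 394.9 and 491.8 on the arrays with 6 h of TCR. Herc1 was at -1.95 ± 0.41 (limma adjusted p 0.01) and Herc4 at -0.75 ± 0.25 (0.049). The count of 3 was 1 with normexp, with the mean of probes, on slide 2 alone, and without the array for IFNβ 1 h + TCR 6 h, and between 2 and 4 under the other alternatives.

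The receptor arm on which USP18 acts was measured through Ifnar1, Ifnar2, Jak1, Tyk2, Stat2 and Irf9. For IFNβ none of the 6 passed, against 0.0503% of all genes. The largest estimates were those of Stat2 (3.34 ± 0.60, limma adjusted p 0.21) and Irf9 (1.63 ± 0.19, 0.085), which act together as interferon-activated transcription factors. At TCR 6 h 5 of 6 passed and were lower, against 22.7% of all genes: Stat2 at -2.76 ± 0.71 (limma adjusted p 0.021), Jak1, a receptor kinase, at -2.16 ± 0.21 (0.00074), Ifnar1, a receptor chain, at -1.52 ± 0.25 (0.0041), Irf9 at -1.36 ± 0.23 (0.0045) and Ifnar2, the chain that USP18 binds, at -1.23 ± 0.36 (0.034). On single arrays 4 of 6 were at least 2-fold below untreated after TCR 6 h and 2 of 6 with IFNβ 1 h + TCR 6 h. The shares of all genes were 21.9% and 22.5%. Ifnar2 was less than 2-fold below on both, at 2694 and 2468 against 3737 and 3562 untreated and 8345 after IFNβ 7 h. Stat2 had a signal of 1025 and 1061 untreated, 7593 and 13290 after IFNβ 2 h and 7 h, 266.9 after TCR 6 h and 840.8 with IFNβ 1 h + TCR 6 h. The brighter Herc6 probe had the same order in these conditions. The second Herc6 probe did not, with 589.2 for IFNβ 1 h + TCR 6 h against 364.2 and 372.3 untreated. The count of 5 was 2 with normexp, under the scanner files' naming and without the array for IFNβ 1 h + TCR 6 h, and 3 without the array for IFNβ 7 h, and 4 or 5 under the others. On the arrays with 6 h of TCR the 7 CD8 T cell markers summed to 271900 and 305600, against 560400 and 561100 untreated, and the B cell markers to 4539 and 5320. Their part in the falls was not tested.

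Enzymes and modifiers of the related ubiquitin-like systems gave a comparison for the IFNβ term. None of 14 other modifiers, 9 E1 enzymes, 13 E2 enzymes and 15 deconjugases passed. Of all genes 0.0503% passed, and none of the 4 members did, so this count does not set the lists apart from the members. The medians of these lists were 0.01, -0.11, -0.14 and -0.05 on the log2 scale. The median of the 4 members was 4.51. The largest of these estimates was that of Usp25, a deubiquitinase, at 1.53 ± 0.43 (limma adjusted p 0.4), with a signal of 13100 and 13320 untreated and 35920 and 61710 after IFNβ 2 h and 7 h. At TCR 6 h 5 of 14 modifiers, 7 of 9 E1 enzymes, 8 of 13 E2 enzymes and 7 of 15 deconjugases were higher (and 0, 0, 1 and 3 lower), against 22.2% of all genes higher and 22.7% lower. Among them was Ube2l3, the E2 enzyme closest to Ube2l6 in name, which rose by 1.43 ± 0.28 (limma adjusted p 0.0073). The counts of higher genes, in the same order, were 2, 3, 6 and 3 with normexp and 3, 5, 4 and 4 with quantile normalization. Fewer passed in each list without the array for IFNβ 1 h + TCR 6 h. The modifier Ubd was well above background on only 2 arrays, and its signal was 267.4 and 168.7 on the arrays with 6 h of TCR. With each array scaled to its median signal, the median of all genes at TCR 6 h was 0.38 (0.05 before), and 62.7% of the genes that passed were higher (49.5% before).

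The genes whose profiles lay nearest to each member, by root mean square difference in log2 change over the 6 treated conditions among 12648 genes, differed between members. Nearest to Usp18 were Rsad2 (0.49), Mx2 (0.90), Ifit1 (0.95), Mx1 (0.98) and Ifit3b (1.38), antiviral effector genes. Nearest to Isg15 were Isg20 (0.98), Cxcl10 (1.14), Ifi44 (1.23), Jaml (1.38) and Gbp6 (1.46), among them the chemokine Cxcl10 and the interferon-inducible GTPase Gbp6. Nearest to Ube2l6 were Ifitm3 (0.63), Bst2 (0.69), Chit1 (0.80), Art2b (0.81) and Ly6a (0.91), and nearest to Herc6 were Ddx58, the RNA sensor RIG-I (0.60), Parp12 (0.70), Atp8a2 (0.79), Gzma (0.79) and Parp9 (0.84). Among the members Isg15 and Usp18 were most alike by the same measure (1.45) and Usp18 and Herc6 least (4.14), as a description of arrays that share their untreated reference. Of the nearest genes with a promoter window, the ISRE core letters were in 3 of 3 for Usp18, 2 of 4 for Isg15, 2 of 4 for Ube2l6 and 2 of 3 for Herc6. Of all windows 3.44% held the core, a share counted per window and not per gene. The nearest genes were chosen by profile in these same data, among genes well above background on every array with IFNβ. These motif counts are therefore a description and no test.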

How the data were processed

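Messenger RNA of 8 samples was measured on 8 single-colour Agilent arrays, 1 sample each. Per the file headers, the deposited scanner files give each spot a processed intensity on a linear scale from Agilent Feature Extraction 10.7.3.1, background-subtracted and detrended within each array, with mm9 probe positions. The submitters' processing notes name version 9.5.3.1. The deposited value table also holds intensity. Each of its columns equalled 1 array's processed signal times a factor between 1.21 and 1.86, with values under 15 set to 15, and the column medians lay between 73.8 and 102, so its scale and direction are known and it is not centred per gene. Whether a probe lies in an exon or a UTR was not analysed here.

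Outlier spots were left out, repeated spots averaged, log2 signal computed from the deposited intensity and scaled to the 75th percentile, and a probe was retained if 2 or more arrays had it well above background (28673 probes). Probes were named through RefSeq accessions (26690 of 41174), and the brightest probe of each gene was used. A further probe that the annotation calls Herc5, with an accession that did not match Herc6, was not used. The untreated arrays differed at 153 repeated probes by an SD of 0.058, slightly more than the 0.055 from spot noise (robust SD 0.037 against 0.031). Their mean was counted as 1 sample, although the plan set this for arrays that differ by no more than spot noise. Counting both, as the plan set otherwise, is given as an alternative. limma 3.58.1 (R 4.3.3, package data.table, version 1.17.8) gave p-values adjusted by Benjamini-Hochberg over all genes. A check on simulated data covered only the IFNβ term of the additive model, not the other terms or models. The residual degrees of freedom were 3 for the additive model, 2 for late minus early IFNβ and 1 for the interactions, where both IFNβ-alone arrays share 1 mean. Figures used matplotlib 3.10.9 (Python 3.11.15).

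The members, the gene lists and the tests were chosen with earlier results of these data known. Named genes were the members, up to 4 genes per pathway list (those that passed by size, then the largest estimates), and the 5 nearest genes per member. Further genes named beside a list count were chosen after their values were seen. Marker lists also covered class II presenting cells (summed signal 11060 to 52810), plasmacytoid dendritic cells (22580 to 300800, a list that holds the interferon-induced Bst2, with Siglech not well above background on any array), myeloid cells (1828 to 4268), CD4 T cells (265.2 to 838.4) and erythroid cells (2216 to 4951). One list gene and one probe sequence are not reported here. Alternatives changed the scaling, background correction, filter, probe rule, slide, naming of the 1 h TCR pair, and left out each array.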

Additional observations from a re-analysis of the deposited data

How the results depend on the processing

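The untreated arrays were counted as 1 sample, each treated condition had 1 array, and the interactions left 1 residual degree of freedom, so few settings gave a stable set of calls. Arrays could not be paired by replicate number because only the untreated group carries replicate numbers. A fit with the slide, which holds 1 untreated array each, as a block is given with the other alternatives. Values below are log2 estimates or counts of genes that passed in limma. The cause of each change was not tested, apart from fewer samples or genes where the setting itself removes them. Levels against untreated were recomputed under 5 alternatives for all 4 members, and 115 of 120 kept their sign. The exceptions were Herc6 values, for TCR 1 h with normexp (0.34) and for IFNβ 1 h + TCR 6 h with median scaling (0.16), quantile normalization (0.004), normexp (0.15) and the mean of probes (0.27). The IFNβ term kept its positive sign for all 4 members under every alternative run.

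For the IFNβ term, 84 genes passed with the untreated arrays separate (Isg15 5.71, Usp18 7.23), 47 with median scaling (Isg15 5.47, Usp18 6.96), 25 with the deposited value table (Isg15 5.50) and 74 among probes well above background on every array (Isg15 5.50, Usp18 6.99). With the slide as a block 50 passed (Isg15 5.71, Usp18 7.23) and on slide 1 alone 280 (Isg15 5.84, Usp18 8.18), and the genes named passed in each of these. The count was 0 with quantile normalization, normexp, slide 2 alone, the scanner files' naming and without the 1 h TCR pair. It was 4 with the untreated arrays separate and the pair left out, an alternative chosen after seeing the data. With single arrays left out the count ran from 0 to 276, Isg15 from 5.24 to 6.17 and Usp18 from 6.47 to 8.33. Both passed without the TCR 6 h or the IFNβ 1 h + TCR 6 h array, and neither passed without any other single array. Leaving out either array of the 1 h TCR pair gives the IFNβ term without the pair.

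For TCR 1 h, 2535 genes passed with the untreated arrays separate, 22 with normexp, 1660 with probes well above background on every array, 533 with no filter, 437 on slide 1 alone and 358 under the scanner files' naming, and 33 to 815 with single arrays left out. The Usp18 estimate was 0.35 with normexp and 0.049 with the slide as a block or on slide 1 alone, and under the scanner files' naming Isg15 was -0.044 and Ube2l6 -0.046. The median of all genes for TCR 1 h was 0.49 with normexp, against -0.05 without it. With single arrays left out Usp18 ran from -1.24 to 0.49, Ube2l6 from -0.57 to 1.38 and Herc6 from -0.36 to 1.74. For TCR 6 h, 3357 genes passed with normexp and 4693 to 8887 with single arrays left out. Isg15 was 0.084 with median scaling, and Ube2l6 was -0.20 with the slide as a block or on slide 2 alone. Herc6, no longer past the threshold, was -2.42 with normexp, -2.82 with the mean of probes and -3.42 under the scanner files' naming. With single arrays left out Isg15 ran from -1.24 to 0.97, Usp18 from -4.33 to 0.13, Ube2l6 from -0.29 to 1.76 and Herc6 from -3.61 to -2.38.

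For late minus early IFNβ, Isg15 was -0.41 with quantile normalization, -0.27 with normexp, -0.26 with the slide as a block, -0.018 without the pair and -0.13 without it with the untreated arrays separate, and Usp18 was 4.33 under the scanner files' naming. With single arrays left out Isg15 ran from -1.93 to 1.00, Usp18 from -4.33 to 0.46, Ube2l6 from -1.08 to 3.36 and Herc6 from -1.51 to 2.05. For the interaction with TCR 1 h, 10893 genes passed with normexp and 65 under the scanner files' naming. Ube2l6 was -2.01 and -6.97 under these settings, Herc6 was -7.92 under the naming, and Usp18 was 0.053 on slide 1 alone. With normexp the median of all genes for this interaction was -1.02, against -0.15 without it, so the shift is not particular to the members. With single arrays left out Usp18 ran from -0.45 to 0.014 and Ube2l6 from -1.73 to 2.17. For the interaction with TCR 6 h, 26 genes passed with normexp, and Herc6 was 0.16 with median scaling and -1.28 to 1.09 with single arrays left out.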
